A study of Mus musculus with 6 samples.

Results

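Cyclins, cyclin-dependent kinases (CDKs), CDK inhibitors and CDC25 phosphatases were taken from the authors' deposited table by their gene symbols: those beginning Ccna to Ccnl, Cdkl or Cdkn and a digit, Cdk and a number, or Cdc25a to Cdc25c. These patterns found 50 of the 16701 genes of the authors' deposited table. Of the 50, 45 are the genes the names mean, 2 are pseudogenes of B cyclins and 3 are other genes whose symbols merely begin like a member. The table compares luminal epithelial cells, the inner layer of the mammary epithelium, from mice lacking Ocln, labelled Ocln-/-, with those of wild-type mice, labelled control. Each genotype had 3 libraries of polyadenylated RNA from mice 7 weeks of age. Ocln encodes occludin, a membrane protein of tight junctions, and the series asks what occludin and its endosomal partner FIP5 do for the mitotic spindle. How the cells were isolated, how many mice stand behind each library, the strain and the nature of the Ocln allele were not given in the sources used here.

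CDKs are protein kinases that are inactive until a cyclin binds them. D cyclins with CDK4 and CDK6 act in G1, where they phosphorylate the retinoblastoma protein RB. E cyclins with CDK2 act at the start of S phase, and A and B cyclins with CDK1 carry the cell into mitosis. INK4 inhibitors bind CDK4 and CDK6, Cip/Kip inhibitors bind cyclin-CDK complexes more broadly, and CDC25 phosphatases remove the inhibitory phosphates from CDKs. A further branch of the family, among it CDK7, CDK9, CDK12 and CDK13, phosphorylates RNA polymerase II and serves transcription and RNA processing. Messages of the mitotic members rise and fall with the cell cycle, so that in resting tissue they come mostly from the few cells that divide. The mouse mammary epithelium needs cyclin D1 for its full growth in pregnancy.

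Ocln itself fell in the knockout libraries, to 44.9% of the control level (95% interval 35.9 to 56.2%) in the authors' deposited table. Knockout over control, the authors' deposited table gives -1.15 ± 0.16 on the log2 scale (SE, DESeq2 adjusted p = 4.36e-09), and its mean level over the 6 libraries was 2048 normalized counts. The gene lies at chr13:100496507-100552718 on the minus strand of GRCm38, and the table does not tell from which exons the reads that are left derive. The luminal label was checked with 7 luminal keratin and epithelial genes, which had mean levels of 4088 to 84084 normalized counts in the authors' deposited table. Of these 7, 0 passed an adjusted p of 0.05 by DESeq2 and 1 had an unadjusted p under 0.05. Basal markers were also present, 7 of 7, at mean levels of 52.4 to 665 normalized counts in the authors' deposited table. The table holds no value of a single library, so every level below is a mean over both genotypes and every error is the authors' SE. The p-values rest on the spread between the 3 libraries of a genotype, which may be partly technical. In these bulk libraries, fewer cells of a type and less RNA per cell cannot be told apart.

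Promoters of the mitotic members are shown first, because most members near or below -1 on the log2 scale belong to this group and several share sequence elements. In mitotic genes, a CCAAT box is bound by the factor NF-Y and a CHR element, written TTTGAA here, is bound by the DREAM and MMB complexes, which hold such genes low in resting cells and raise them before mitosis. The stretches below run from 120 bases before to 20 bases after the annotated transcription start and come from RefSeq on GRCm38.p6, with the gene's sense strand read from its 5′ end. Capitals mark every CCAAT and TTTGAA on either strand, so that a box on the other strand reads ATTGG or TTCAAA. Cyclin B1 (chr13:100786467-100786606, minus strand), cyclin B2 (chr9:70421535-70421674, minus strand), Cdk1 (chr10:69352893-69353032, minus strand) and the phosphatase gene Cdkn3 (chr14:46760421-46760560, plus strand) are set beside Cdk6 (chr5:3343773-3343912, plus strand), the member that rose.
Ccnb1: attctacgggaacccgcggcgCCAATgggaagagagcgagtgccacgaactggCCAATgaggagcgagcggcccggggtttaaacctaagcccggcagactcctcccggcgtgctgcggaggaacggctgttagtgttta
Ccnb2: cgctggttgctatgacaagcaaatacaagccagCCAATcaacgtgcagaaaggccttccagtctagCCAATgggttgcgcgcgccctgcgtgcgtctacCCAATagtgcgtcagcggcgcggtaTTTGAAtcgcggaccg
Cdk1: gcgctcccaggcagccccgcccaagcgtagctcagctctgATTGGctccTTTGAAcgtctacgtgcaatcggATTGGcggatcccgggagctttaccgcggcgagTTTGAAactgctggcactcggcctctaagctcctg
Cdkn3: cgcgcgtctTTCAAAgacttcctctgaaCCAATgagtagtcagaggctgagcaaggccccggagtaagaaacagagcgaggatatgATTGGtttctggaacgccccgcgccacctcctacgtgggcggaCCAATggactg
Cdk6: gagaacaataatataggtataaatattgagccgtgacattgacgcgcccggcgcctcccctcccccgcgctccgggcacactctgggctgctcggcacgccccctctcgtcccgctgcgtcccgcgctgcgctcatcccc
In the cyclin B1 stretch the CCAAT boxes begin 99 and 67 bases before the start, 32 bases apart. In its stretch, cyclin B2 has CCAAT boxes 87, 54 and 21 bases before its start, 33 bases apart each time, and a TTTGAA that begins at base 5 of the transcript. Cdk1 carries the boxes shown on the other strand, 80 and 48 bases before the start and again 32 bases apart, with TTTGAA 71 and 15 bases before it. The Cdkn3 stretch has boxes 92 and 34 bases before the start and at base 10, and a TTTGAA on the other strand 111 bases before it. No match of either motif lies in the Cdk6 window.

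**Figure D1:**
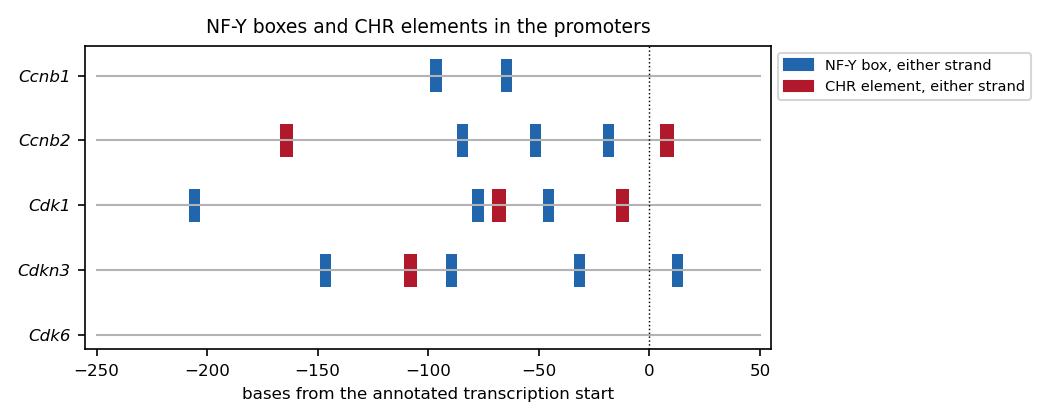
Matches of the NF-Y box (blue) and the CHR element (red) on either strand in the RefSeq promoter windows of 5 members; the x axis gives bases from the annotated transcription start (dotted line). The CHR element was searched only as TTTGAA. Ccnb2, Cdk1 and Cdkn3 hold matches of both motifs, Ccnb1 holds 2 NF-Y boxes and no TTTGAA, and Cdk6 holds no match of either. The 5 members were chosen after their values were seen. Of all promoter windows, 37.4% hold an NF-Y box and 17.9% a TTTGAA, so most windows lack each.

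Both motifs are short and common, and each is given with its share of all 32851 RefSeq promoter windows of 300 bases (250 before to 50 after the start). Matches were counted on both strands, also where they share bases. Windows were available for 36 of the 50 members, and the others, the cyclin A2 gene Ccna2 among them, could not be searched. At least 1 CCAAT was in 37.4% of all windows and in 50% of the 42 windows of these 36 members. At least 3 CCAAT were in 3.37% of all windows and in 6 member windows (14.3%), those of Ccnb2, Ccng1, Cdk1, Cdk16, Cdkn1b and Cdkn3. TTTGAA was in 17.9% of all windows and in 5 member windows (11.9%). At least 2 CCAAT with a TTTGAA stood in 2.09% of all windows and in 4 member windows (9.52%), those of Ccnb2, Cdk1, Cdk16 and Cdkn3. Cdk16, a kinase of the CDK5 branch, stood at -0.07 ± 0.14 on the log2 scale (SE) in the authors' deposited table, so the same elements also stood before a member near 0. Also with at least 3 CCAAT, Cdkn1b stood at -0.07 ± 0.18 and Ccng1 at -0.40 ± 0.21 in the authors' deposited table. The phosphatase gene Cdc25b, at -0.80 ± 0.30 there, had 1 CCAAT and no TTTGAA in its window. Only TTTGAA was searched for the CHR element, so a window without a match may hold another form of it. These matches describe letters in a window and were not tested for binding.

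Among the 50 members, 1 passed the DESeq2 test at an adjusted p under 0.05 and it was higher in the knockout: Cdk6, the G1 partner of D cyclins. That is 1 of 50, beside 1.08% of all genes of the authors' deposited table (0.808% higher and 0.275% lower). With an unadjusted p under 0.05 there were 11 members, 3 higher and 8 lower, which is 22% of the 50, beside 9.07% of all genes (5.23% higher and 3.83% lower). A negative log2 fold change was listed for 34 members (68%), beside 51.2% of all genes in the authors' deposited table. The median log2 fold change was -0.08 over the members and -0.01 over all genes. The authors' own call, which marks an unadjusted p under 0.05 with a change above 1.01 in size on the log2 scale, put 4 members in Down (Ccnb2, Ccnb1-ps, Ccnb1 and Cdc25c) and the other 46, Cdk6 among them, in Stable.

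**Figure D2:**
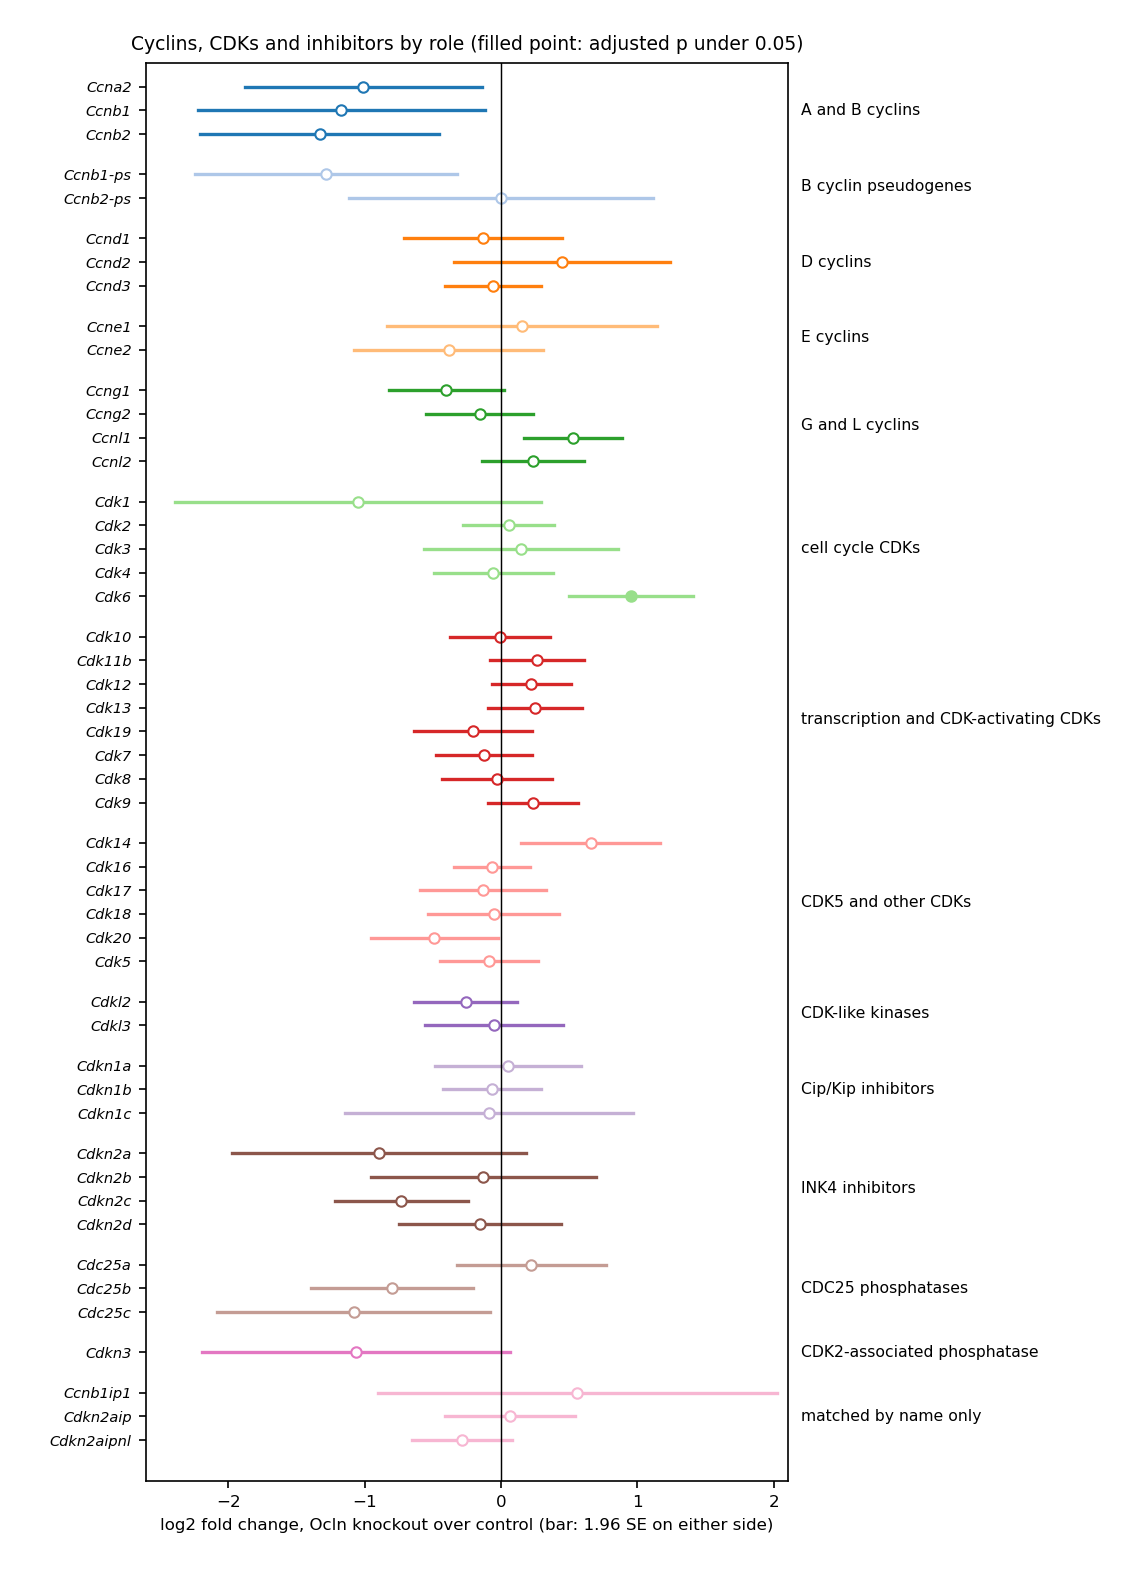
Log2 fold change, Ocln knockout over control, of the members by role, from the authors' deposited table; points are the estimates, bars reach 1.96 SE to either side, and the filled point marks an adjusted p under 0.05. Cdk6 is the filled point, at 0.95, while the A and B cyclins lie between -1.33 and -1.01 with wide bars.

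The cyclins of G2 and mitosis lay between -1.33 and -1.01 on the log2 scale in the authors' deposited table, and none of the 3 passed the DESeq2 test over all genes, although all 3 had an unadjusted p under 0.05. Ccnb2, which encodes cyclin B2, stood in the knockout libraries at 39.8% of the control level (95% interval 21.6 to 73.1%) in the authors' deposited table. On the log2 scale that table lists -1.33 ± 0.45 (SE, DESeq2 adjusted p = 0.149), with 235 normalized counts as the mean level. Ccnb1, the gene of cyclin B1, which triggers entry into mitosis with CDK1, was at 44.4% of control (21.4 to 92.1%) in the authors' deposited table, with a log2 fold change of -1.17 ± 0.54 (DESeq2 adjusted p = 0.467). Ccna2, whose cyclin A2 serves S phase and G2, was at 49.7% of control (27.2 to 90.8%) there, with -1.01 ± 0.44 in the authors' deposited table (DESeq2 adjusted p = 0.426). Their median log2 fold change was -1.17. The intervals are not adjusted for the number of genes, and those of these 3 cyclins end below 100% of control.

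Cdk1, the kinase that A and B cyclins activate, had a value of the same size and a wider error: 48.4% of the control level (95% interval 19.1 to 122.8%) in the authors' deposited table. At -1.05 ± 0.69 (SE) on the log2 scale it did not pass (DESeq2 adjusted p = 0.722, unadjusted p = 0.127), and its interval runs across 100%. The pseudogene Ccnb1-ps was listed at -1.28 ± 0.49 (DESeq2 adjusted p = 0.274) with a mean level of 65.0 normalized counts in the authors' deposited table. Its reads cannot be separated with certainty from those of Ccnb1, since 832 of its 1238 stretches of 50 bases (67.2%) also occur in Ccnb1 transcripts of GENCODE M21. Stretches of 100 bases are shared to 43.2%, so the values of Ccnb1 and Ccnb1-ps are not independent measurements. Ccnb2-ps shares no 50-base stretch with Ccnb2, and it was listed at -0.00 ± 0.57 with a mean level of 14.2 in the authors' deposited table.

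Of the CDC25 phosphatases, which switch CDKs on, 0 passed the DESeq2 test and 2 had an unadjusted p under 0.05, both lower. Cdc25b, which acts in G2, was at 57.6% of the control level in the authors' deposited table, or -0.80 ± 0.30 on the log2 scale (SE, DESeq2 adjusted p = 0.269). Cdc25c, which acts on CDK1 at mitotic entry, was at 47.3%, with -1.08 ± 0.51 in the authors' deposited table (DESeq2 adjusted p = 0.491). Cdc25a, which acts from G1 onwards and is the member of this role with the highest mean level (351 normalized counts), was listed on the other side of 0, at 0.22 ± 0.28 in the authors' deposited table (DESeq2 adjusted p = 0.917). Cdkn3 is named like an inhibitor but encodes a phosphatase that dephosphorylates CDK2. It had a log2 fold change of -1.06 ± 0.58 at a mean level of 33.3 in the authors' deposited table (DESeq2 adjusted p = 0.599, unadjusted p = 0.0643).

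The D and E cyclins, which drive G1 and the start of S phase, had values nearer to 0: 0 of 5 passed the DESeq2 test and 0 had an unadjusted p under 0.05. Ccnd1, the D cyclin with the highest level, was at 91.4% of control (95% interval 61.2 to 136.6%) in the authors' deposited table, or -0.13 ± 0.30 on the log2 scale (SE, DESeq2 adjusted p = 0.964). Ccnd3 was listed at -0.06 ± 0.18 and Ccnd2 at 0.45 ± 0.41 in the authors' deposited table, where Ccnd2 has a mean level of only 52.4 normalized counts. For cyclin E1 and cyclin E2 the authors' deposited table gives 0.15 ± 0.51 (Ccne1) and -0.38 ± 0.35 (Ccne2). The interval of Ccnd1 leaves room for values from 61.2 to 136.6% of control, so a missed threshold does not show equal levels. The difference between A and B cyclins and D and E cyclins was not tested.

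Cdk6 rose in the knockout libraries to 1.93 times the control level (95% interval 1.41 to 2.65) in the authors' deposited table. CDK6 is a kinase of G1 that binds D cyclins and phosphorylates RB, as CDK4 does. On the log2 scale Cdk6 stood at 0.95 ± 0.23 (SE, DESeq2 adjusted p = 0.00764) with a mean level of 1202 normalized counts, and by p it ranks 93 of 16701 in the authors' deposited table. The gene lies on the plus strand at chr5:3341485-3531008 of GRCm38. Its close relative Cdk4 stood at -0.06 ± 0.22 in the authors' deposited table (DESeq2 adjusted p = 0.981), which is 96.2% of control (71.1 to 130.2%). Cdk2, the kinase of E and A cyclins, was at 103.9% of control (82.3 to 131.2%) in the authors' deposited table, with a log2 fold change of 0.06 ± 0.17. Cdk3, a little-studied relative of CDK2, was listed at 0.15 ± 0.36 with a mean level of 39.4 in the authors' deposited table.

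The Cdk6 value was also set beside its exon length. The Wald score of the authors' deposited table, which is the log2 fold change over its SE, rose with exon length: Spearman's rho was 0.171 over 16223 genes, and genes are no independent replicates. Cdk6, with 13989 bases of merged exons, is in the longest of 20 length bins, whose median score was 0.51, and its own score was 4.09 in the authors' deposited table. With the bin's median taken off, its adjusted p was 0.0362, and with all scores scaled down by their common inflation it was 0.0294. Over all settings in which p-values were made again, it ran from 0.00626 to 0.0362. Its change on the log2 scale was under 1, so Cdk6 was not called where a size of 1 was asked as well.

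Of the 7 CDK inhibitor genes, 0 passed the DESeq2 test and 1 had an unadjusted p under 0.05. The 3 Cip/Kip genes, which encode inhibitors of CDK2 complexes, lay between -0.09 and 0.05 in the authors' deposited table. Cdkn1a, the p53 target that encodes p21, was at 103.5% of control (95% interval 71.5 to 149.8%) in the authors' deposited table, or 0.05 ± 0.27 on the log2 scale (SE, DESeq2 adjusted p = 0.987). Cdkn1b, which encodes p27, was listed at -0.07 ± 0.18 and Cdkn1c, the imprinted gene of p57, at -0.09 ± 0.54 in the authors' deposited table. The 4 INK4 genes, whose products bind CDK4 and CDK6, all had negative log2 fold changes with a median of -0.44, and 0 passed. Cdkn2c had the only unadjusted p under 0.05 of the 4, with a log2 fold change of -0.73 ± 0.25 and 60.3% of the control level (43.1 to 84.4%) in the authors' deposited table (DESeq2 adjusted p = 0.155). In the mouse mammary gland the product of Cdkn2c is known to restrain the division of luminal progenitors. Cdkn2a, the locus of Ink4a and Arf, was listed at -0.89 ± 0.55 (DESeq2 adjusted p = 0.684), and the table does not separate its products. Cdkn2b stood at -0.13 ± 0.42 and Cdkn2d at -0.15 ± 0.30 in the authors' deposited table.

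Members that serve transcription and splicing lay on both sides of 0, between -0.21 and 0.53 on the log2 scale. Among the 8 CDKs of transcription and CDK activation, 0 passed the DESeq2 test and 0 had an unadjusted p under 0.05, with a range of -0.21 for Cdk19 to 0.26 for Cdk11b and a median of 0.11 in the authors' deposited table. Cdk19, a kinase of the Mediator complex, had the highest mean level of all members at 10524 normalized counts, and the authors' deposited table gives it -0.21 ± 0.22 (SE) on the log2 scale. Ccnl1, which encodes cyclin L1, a partner of the splicing kinase CDK11, was at 1.44 times the control level (95% interval 1.13 to 1.85). In the authors' deposited table its 0.53 ± 0.18 on the log2 scale missed the threshold (DESeq2 adjusted p = 0.170, unadjusted p = 0.00373). Ccnl2, its relative, was listed at 0.23 ± 0.19 in the authors' deposited table. Of the 10 transcription CDKs and L cyclins, a set put together after their values were seen, 4 were negative, beside 51.2% of all genes. The 6 positive ones were Cdk9, Cdk12, Cdk13, Cdk11b, Ccnl1 and Ccnl2, from 0.22 to 0.53 in the authors' deposited table. CDK9, CDK12 and CDK13 phosphorylate RNA polymerase II during elongation. Cdk7, Cdk8 and Cdk10 lay between -0.12 and -0.00 there, Cdk7 encoding the kinase that activates other CDKs.

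The remaining members work largely outside the cell cycle. Ccng1, the gene of cyclin G1 and a p53 target, was listed at -0.40 ± 0.21 on the log2 scale (SE, DESeq2 adjusted p = 0.595), and Ccng2 stood at -0.15 ± 0.20, both in the authors' deposited table. Of the 6 members of the CDK5 branch and CDK20, 0 passed the DESeq2 test. Cdk14, whose kinase binds cyclin Y at the plasma membrane in Wnt signalling, was at 1.58 times the control level (95% interval 1.11 to 2.25) in the authors' deposited table. Its log2 fold change was 0.66 ± 0.26 (DESeq2 adjusted p = 0.305). Cdk20, a kinase tied to the primary cilium, was listed at -0.49 ± 0.24 in the authors' deposited table (DESeq2 adjusted p = 0.506). Cdk5, Cdk16, Cdk17 and Cdk18 lay between -0.13 and -0.05 in the authors' deposited table. The CDK-like kinase genes Cdkl2 and Cdkl3 stood at -0.26 ± 0.19 and -0.05 ± 0.26 in the authors' deposited table. Among genes that share only the start of a symbol, Cdkn2aipnl stood at -0.29 ± 0.19, Cdkn2aip at 0.07 ± 0.24 and Ccnb1ip1 at 0.56 ± 0.75 in the authors' deposited table.

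Levels of different members were compared per kb of merged exons, as means over both genotypes. Cdk19 was first at 1800 normalized counts per kb, followed by Ccnl1 at 1638, Ccnd1 at 1499, Ccnl2 at 1322 and Cdk4 at 1049, all computed from the authors' deposited table. Cdkn1a and Cdkn1b followed at 875 and 726 per kb, so the leading cyclin, CDK and inhibitors of G1 were Ccnd1, Cdk4, Cdkn1a and Cdkn1b. Cdk6, at 85.9 per kb from the authors' deposited table, was below Cdk4 and below Cdk2 at 179. Ccnd3, at 118 per kb, and Ccnd2, at 5.57, were far below Ccnd1 in the authors' deposited table. Among the mitotic members Ccnb2 was at 153 per kb, Cdk1 at 62.8, Ccna2 at 59.1 and Ccnb1 at 17.9 in the authors' deposited table. The median was 118 per kb over the 49 members with a length and 108 over all 16223 genes with one. The spread of a level over libraries is not shown by the table, so neighbours in this order cannot be told apart by a test. These lengths are those of GENCODE M21, while the annotation behind the counts is not given in the sources used here.

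**Figure D3:**
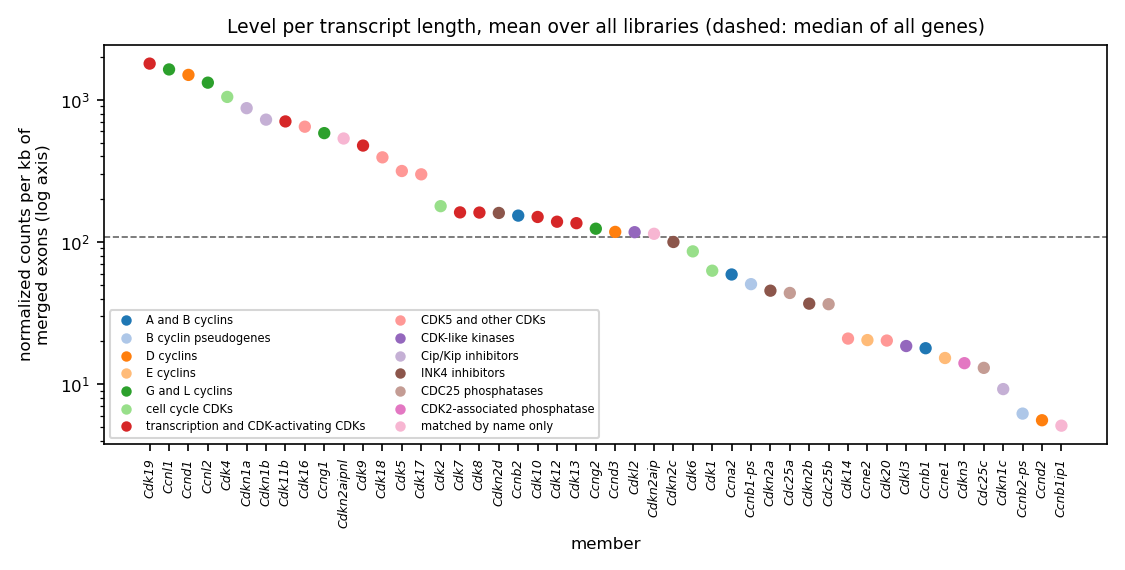
Mean level per kb of merged exons over all 6 libraries for the members with a length, on a log axis, coloured by role; the dashed line is the median of all genes. Levels run from 1800 for Cdk19 to 5.10 for Ccnb1ip1, with Ccnd1 and Cdk4 near the top and Ccnb1, Ccne1 and Ccnd2 below the line.

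The SE of the mitotic members was large for their level. Genes with mean levels of 50 to 500 normalized counts (5322 genes of the authors' deposited table) had a median SE of 0.26, with a 10th to 90th percentile of 0.19 to 0.40. The A and B cyclins had SEs of 0.44 to 0.54 in the authors' deposited table, and Cdk1 one of 0.69, all above that 90th percentile. Cdk6 had an SE of 0.23, where the 6870 genes between 500 and 5000 had a median of 0.18 and a 90th percentile of 0.25. The SE is the authors' estimate over all 6 libraries, and which library spreads a gene was not tested.

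**Figure D4:**
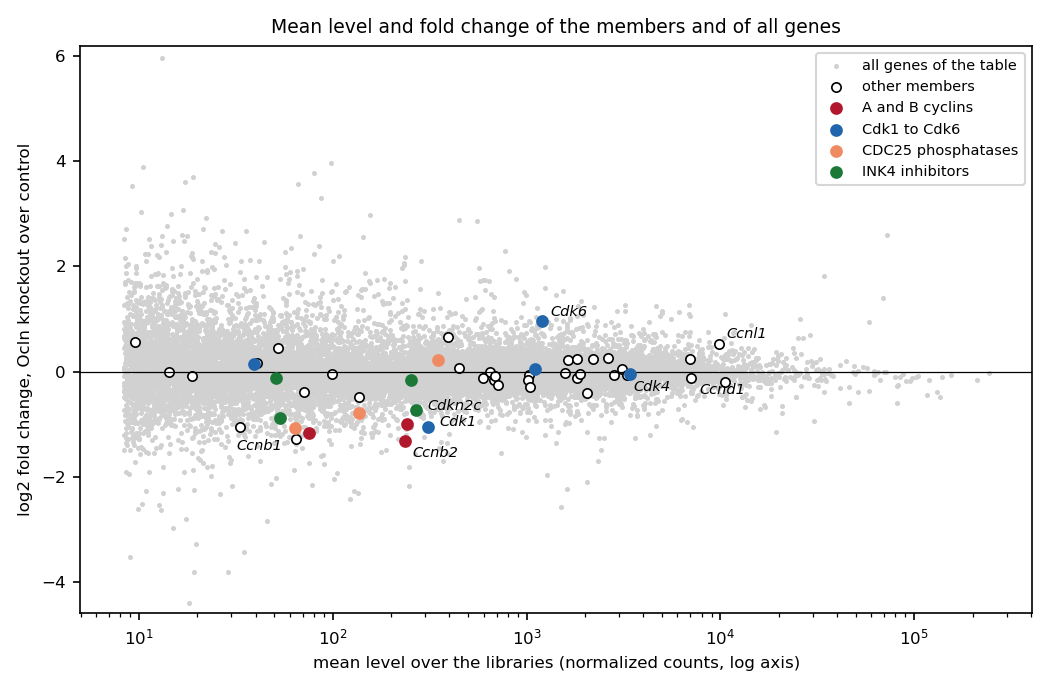
Mean level over the 6 libraries (normalized counts, log axis) against log2 fold change, Ocln knockout over control, for all 16701 genes (grey) and the 50 members (circles, 4 roles coloured). Cdk6 lies above 0 at a mean level of 1202, and the A and B cyclins and Cdk1 lie near or below -1 at levels from 75.4 to 310.

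Exons of 11 members overlap those of another gene of the authors' deposited table on the opposite strand, and whether reads were counted by strand is not given in the sources used here. For Ccna2 the overlap with Exosc9 covers 12.5% of its merged exons, for Cdk4 that with Tspan31 covers 19.7%, and for Ccne2 that with Ints8 covers 17.4%. Ccnd1 shares 23.4% with LTO1. These partners had log2 fold changes of -0.12 ± 0.17 (Exosc9), -0.20 ± 0.17 (Tspan31), 0.08 ± 0.16 (Ints8) and -0.11 ± 0.19 (LTO1) in the authors' deposited table. The part of shared reads in the members' values was not tested.

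Of 112 further genes of the same machinery, listed by role, 109 were in the authors' deposited table, and 0 of them passed the DESeq2 test at an adjusted p under 0.05. With an unadjusted p under 0.05 there were 16 genes, 1 higher and 15 lower in the knockout, beside 9.07% of all genes (5.23% higher and 3.83% lower), and the median log2 fold change was -0.12. Among 20 other cyclins and CDK partners 1 was lower at an unadjusted p under 0.05, Ccnf, the gene of cyclin F, at -0.80 ± 0.37 (SE) in the authors' deposited table. Ccni, the one with the highest mean level, stood at -0.00 ± 0.16 in the authors' deposited table. Among 14 kinases and phosphatases that act on CDKs or beside them, 3 were lower at an unadjusted p under 0.05. These were the mitotic kinase genes Plk1 (-1.07 ± 0.48), Aurkb (-1.04 ± 0.49) and Aurka (-0.58 ± 0.27), while Plk3, with the highest mean level, was at 0.31 ± 0.21 in the authors' deposited table.

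The list of RB, a target of CDK4 and CDK6, and the E2F factors had 0 of 13 genes at an adjusted or an unadjusted p under 0.05 by DESeq2. Their median log2 fold change was 0.04, with 6 negative and 7 positive, from -1.08 for E2f7 to 0.26 for Rb1. Rb1, the highest of them in mean level, was listed at 0.26 ± 0.24 (SE) in the authors' deposited table. Among 8 genes of the DREAM and MMB complexes, which act at the CHR element, 1 had an unadjusted p under 0.05: Foxm1, a transcription factor of mitotic genes, at -0.80 ± 0.34 in the authors' deposited table (DESeq2 adjusted p = 0.383). Rbbp4, a shared subunit with the highest mean level, was at -0.16 ± 0.15 in the authors' deposited table. Among 24 genes that degrade cyclins and inhibitors, Fbxw7, whose ubiquitin ligase marks cyclin E, had the only unadjusted p under 0.05, at 0.51 ± 0.18 in the authors' deposited table (DESeq2 adjusted p = 0.214). Skp1, an adaptor of the same ligases, had the highest mean level and -0.18 ± 0.15 in the authors' deposited table. Of these 24 genes 17 were negative, beside 51.2% of all genes, and 7 were positive, from -1.06 for Ube2c to 0.51 for Fbxw7.

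Proliferation markers lay on the same side as the B cyclins. Of 30 such genes 28 were negative on the log2 scale, beside 51.2% of all genes, and the median was -0.83. The DESeq2 test passed 0 of them, and 10 were lower at an unadjusted p under 0.05, beside 3.83% of all genes. The 20 mitotic ones were all negative, with a median of -0.94, and the 10 replication genes were negative in 8 cases, with a median of -0.18. The smallest p-values belonged to Cenpf, a kinetochore protein gene, at -1.27 ± 0.39 (SE, DESeq2 adjusted p = 0.0735), and to Kif23, a motor of the midzone, at -0.98 ± 0.37 in the authors' deposited table. Cenpe, a kinetochore motor, stood at -1.08 ± 0.42 and Hmmr, a spindle protein, at -1.16 ± 0.48 in the authors' deposited table. Mcm6, a helicase subunit and the highest in mean level, was at -0.14 ± 0.34 in the authors' deposited table. These lists were chosen with results of these data known, so their common direction is a description.

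**Figure D5:**
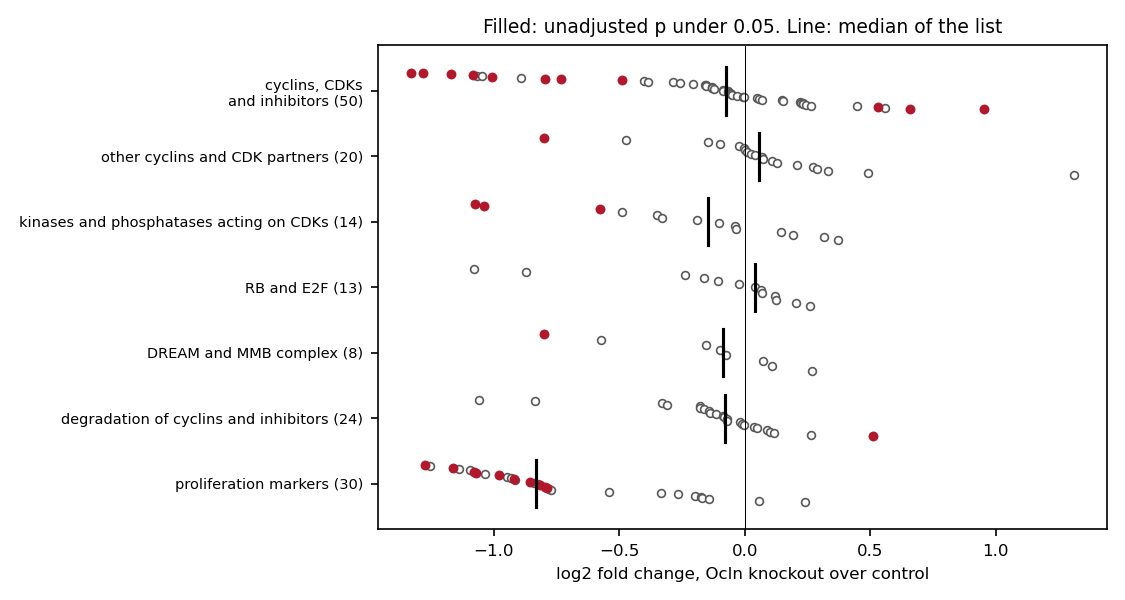
Log2 fold change, Ocln knockout over control, of the 50 members (top row) and of 6 lists of cell cycle genes outside the name patterns, from the authors' deposited table; each point is a gene, filled at an unadjusted p under 0.05, and the bar is the list's median. The proliferation markers have a median of -0.83, and the other 5 lists have medians between -0.15 and 0.05.

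Some markers of luminal subtypes and of other cells differed between the genotypes beside these values, and their part in them was not tested. For comparison, 51.2% of all genes had a negative log2 fold change and 9.07% an unadjusted p under 0.05. Of 6 luminal progenitor markers Ltf rose and Csn3 fell, and 4 had an unadjusted p under 0.05 by DESeq2, 3 higher and 1 lower. Log2 fold changes were positive for 5 of the 6, and the median of the list was 0.43 in the authors' deposited table. Of 6 hormone-sensing luminal markers 5 were negative, with a median of -0.35, and 0 passed the DESeq2 test or had an unadjusted p under 0.05. Of 6 macrophage and myeloid markers, at mean levels of 16.2 to 541 normalized counts, 6 were positive and S100a8 rose (log2 fold change 2.12 ± 0.53 in the authors' deposited table, DESeq2 adjusted p = 0.00935). In the lymphocyte lists 2 of 5 T and NK cell markers and 4 of 6 B and plasma cell markers were listed, with medians of 0.79 and 1.41, and 0 of these 6 passed the DESeq2 test, adjusted or not. Of 7 basal markers Oxtr fell, and 6 of the 7 were negative, with a median of -0.19. Of 6 fibroblast markers Dcn fell, while the other 5 were positive and the median of the list was 0.22. Of 5 endothelial markers 0 passed the DESeq2 test, adjusted or not, and all 5 were positive, with a median of 0.04 in the authors' deposited table. All 3 red blood cell markers were negative, with a median of -1.76, 0 passing the DESeq2 test and 1 at an unadjusted p under 0.05. Of 4 adipocyte markers 1 was listed.

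Ccnb1 and Cdk7 lie on chromosome 13 near the altered gene, 226 and 150 kb from Ocln. Within 0.5 Mb of Ocln the authors' deposited table lists 24 other genes, of which 3 rose and 0 fell, beside 1.08% of all genes called. The 3 were Naip3, Naip5 and Naip6, which belong to 1 gene family. At an unadjusted p under 0.05 there were 9, beside 9.07% of all genes. Negative log2 fold changes were listed for 8 of the 24, beside 51.2% of all genes. Cdk7 stood at -0.12 ± 0.18 (SE) and Cenph, a kinetochore gene 207 kb from Ocln, at -0.81 ± 0.34 in the authors' deposited table. Whether alleles linked to Ocln bear on Ccnb1 or Cdk7 was not tested. Ccnb2 lies on chromosome 9 and Cdk1 on chromosome 10. Their log2 fold changes were -1.33 and -1.05 in the authors' deposited table, and neither passed the DESeq2 test (adjusted p = 0.149 and 0.722). Values of genes on other chromosomes cannot show whether linked alleles bear on Ccnb1 or Cdk7.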

How the data were processed

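RNA of 3 Ocln knockout and 3 control libraries was compared in 1 deposited table. Per the submitters' processing notes, DESeq2 (version not given) and the build mm10 were used. Aligner, counter, annotation and model: not given in the sources used here. For each gene the authors' deposited table gives, per the file headers, the mean normalized count over the libraries (a signal), the log2 fold change and its SE, the Wald score, the p-value and adjusted p-value, and another column with the authors' call. The direction was taken from the name of the table.

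No test was made per gene beyond the authors' DESeq2 test, since values per library were not used here; the depth of each library is unknown. In the authors' deposited table the score equals the log2 fold change over its SE within 2.58e-07, and the adjusted p matches Benjamini-Hochberg over the 16701 genes within 0.514%. Intervals of 95% are 1.96 SE to either side on the log2 scale and assume a normal error. Lengths and positions are from GENCODE M21 (49 members matched) and promoters from RefSeq on GRCm38.p6. The lowest mean level listed is 8.35, and 6 annotated genes that match the name patterns (Ccna1, Ccnb3, Ccnd3-ps, Cdk15, Cdkl1 and Cdkl4) were not analysed here. Python 3.11.15 with pandas 2.3.3, NumPy 2.4.6, SciPy 1.17.1 and matplotlib 3.10.9 was used, and the adjustment, inflation and length steps were tested on simulated data.

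The members, roles, lists and tests were chosen with earlier results of these data known. Every member may be named, but 1 gene is counted among the members and not reported singly here or drawn by name. Values with SE are given for members at an unadjusted p under 0.05, the highest in mean level of each role, cyclins A, B, D and E, Cdk1, Cdk2, Cdk4, Cdk6, the inhibitors and Cdc25a to Cdc25c. Of each further list, up to 4 genes with the smallest unadjusted p under 0.05 and the 1 with the highest mean level are named. Other genes named with values, and the promoters shown, were chosen after their values were seen. Other settings were p under 0.01, a change of 1 or more in size on the log2 scale, mean levels of at least 50, the authors' calls, division of the scores by their inflation, centred fold changes and leaving out genes matched by name only, to which the pseudogenes were added after seeing the table. Removal of the length trend in 20 bins and leaving out genes within 5 Mb of Ocln were added after seeing the data.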

Additional observations from a re-analysis of the deposited data

How the results depend on the processing

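No paired analysis was possible because the deposited table holds no values per library; for the same reason leaving out each replicate in turn was not run. The count of 1 member at an adjusted p under 0.05 was 0 when a change of 1 or more on the log2 scale was asked as well and 4, all lower, by the authors' calls (Ccnb2, Ccnb1-ps, Ccnb1 and Cdc25c). The 11 members at an unadjusted p under 0.05 were 6 at p under 0.01 (2 higher and 4 lower), 5, all lower, with the size of 1, and 4 by the authors' calls. Cell cycle genes outside the name patterns were 0 at an adjusted p under 0.05, 6 by the authors' calls, all lower, and 1 with the length trend taken out (Cenpf, adjusted p = 0.0213 in place of 0.0735). All genes called were 181, with 107 at an adjusted p under 0.01, 117 with the size of 1, 466 by the authors' calls and 119 after division of the scores by their inflation. The median of the B cyclin pseudogenes was -0.64, and -1.28 with mean levels of at least 50, since 1 of the 2 genes was left. The stricter or other rules for a call set the other counts by construction. Cenpf, with 15433 bases of merged exons, is in the longest of the 20 length bins. The length step took that bin's median score of 0.51 off its score of -3.28. Centring shifts every role median by the same amount, and leaving out genes changes only the roles that hold them. Many role medians could thus move little or not at all by construction. Of 57 role medians compared, 56 moved by less than the median SE. Among these, mean levels of at least 50 turned the sign for genes matched by name only (0.07 to -0.11) and cell cycle CDKs (0.06 to -0.00), and took the E cyclins to -0.38, against -0.11, and the Cip/Kip genes to -0.01, against -0.07. Leaving out genes near Ocln took the transcription CDKs to 0.22, against 0.11. The 3 mitotic cyclins and Cdk1 had wide intervals with 3 libraries a genotype, and that of Cdk1 spans 19.1 to 122.8% of control in the authors' deposited table. The reason for this width was not tested.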

Other observations

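Cdk6 and Cdk14, the members with the highest fold changes among those at an unadjusted p under 0.05, both lie on mouse chromosome 5, within 2.08 Mb from the start of Cdk6 to the end of Cdk14. The authors' deposited table lists 17 other genes in that interval. Of these, 0 passed the DESeq2 test and 1 had an unadjusted p under 0.05, beside 9.07% of all genes. Log2 fold changes were negative for 6, beside 51.2% of all genes, and the median of the 17 was 0.15. The gene next to Cdk6, Fam133b, stood at -0.06 ± 0.20 (SE), and Fzd1, a Wnt receptor gene beside Cdk14, at 0.41 ± 0.30 in the authors' deposited table. The genes were chosen after their values were seen, and Cdk6 and Cdk14 are both in the longest of 20 bins of exon length, whose median Wald score was 0.51.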
